A study of Mus musculus with 24 samples.

Results

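Vasopressin, oxytocin and prokineticin signalling was followed in the mouse suprachiasmatic nucleus (SCN) through 5 genes: the peptide precursors Avp, Oxt and Prok2 and the receptors Avpr1a and Prokr2. They were chosen by gene symbol and are 5 of the 18193 genes with a probe set annotated to 1 symbol. They are read by 9 of its 45101 probe sets. Where a gene had several probe sets, the one with the highest mean over the 24 arrays leads.

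The SCN, a paired nucleus above the optic chiasm, holds the master circadian clock of mammals. Avp encodes arginine vasopressin, a peptide that neurons in the dorsal shell of the SCN release in a daily rhythm. The V1a receptor, product of Avpr1a, couples vasopressin to the G protein Gq, phospholipase C and calcium release, and mouse mutants of vasopressin receptors re-entrain unusually fast to shifted light cycles. Prok2 encodes prokineticin 2, a secreted peptide regarded as an output signal of the SCN. Its receptor Prokr2, also coupled to Gq, is made in the SCN and its target areas, and Prok2 transcription is known to respond both to the clock and to light. Oxt encodes oxytocin, the main product of magnocellular neurons of the neighbouring paraventricular and supraoptic nuclei rather than of the SCN.

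Adult C57BL/6 mice, 8 weeks old when bought and housed singly, lived in constant dim red light for at least 7 days. Pulsed mice received 30 min of light timed to advance the clock, while the other group had a sham treatment. Brains of both groups were taken 3.5 h later. Dorsal (shell), central and ventral (core) SCN were cut from stained cryosections by laser microdissection, and amplified RNA was hybridised to 1 array per sample. The groups were pulsed dorsal, sham dorsal, pulsed central, sham central, pulsed ventral and sham ventral SCN, with 4 arrays each. The labels name no mutation or transgene, and do not say which arrays share an animal or whether animals were pooled. P-values therefore measure the spread between these samples only.

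Amplification and labelling were done in 2 batches, replicates 1 and 2 in batch A and replicates 3 and 4 in batch B, and the deposited log2 values of the batches were not on one scale. Array medians were 3.52 to 3.62 in batch A and 4.81 to 5.07 in batch B, so each group is described within its batch and every test had the batch as a term. The array of dorsal pulsed replicate 4 stood apart. Its Gapdh 3′ probe set exceeded the 5′ probe set by 5.41 on the log2 scale, against 0.89 to 1.07 on the other 11 batch B arrays, and its median correlation with its batch was 0.913, against 0.977 to 0.987. The members' dorsal light effects and the dorsal regional differences of Avp, Oxt and Prok2 are given with and without it. Other dorsal values include it unless stated. Of 7 SCN neuron markers, 6 (Six6, Six3, Lhx1, Vip, Rgs16 and Rorb) read 5.94 or more on 24 arrays, above every array median, and Vipr2 read 4.09 to 8.31. Astrocyte markers were also high, at 6.6 to 12.54. Vip, the peptide of the ventral core, was lower in dorsal than in ventral SCN by a log2 difference of -3.43 (adjusted p = 9.97e-08) and than in central SCN by -2.88 (adjusted p = 1.05e-06).

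The promoters of Avp and Prok2 are shown because both genes are known targets of the clock proteins that bind the E-box. The search covered the 250 bases before the start of each gene in RefSeq (GRCm38.p6), where 5 of 5 members had an entry. The E-box letters CACGTG, the same on both strands, are in capitals, as are the AP-1 letters TGAGTCA, which were searched on both strands after the promoters had been read. Both are written 5′ to 3′ on the minus strand.
Avp, chr2:130582589-130582838: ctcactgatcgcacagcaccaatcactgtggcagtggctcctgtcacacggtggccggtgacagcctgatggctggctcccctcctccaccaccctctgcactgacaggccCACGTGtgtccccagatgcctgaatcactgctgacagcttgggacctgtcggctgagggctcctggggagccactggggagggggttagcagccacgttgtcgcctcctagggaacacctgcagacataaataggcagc
Prok2, chr6:99726393-99726642: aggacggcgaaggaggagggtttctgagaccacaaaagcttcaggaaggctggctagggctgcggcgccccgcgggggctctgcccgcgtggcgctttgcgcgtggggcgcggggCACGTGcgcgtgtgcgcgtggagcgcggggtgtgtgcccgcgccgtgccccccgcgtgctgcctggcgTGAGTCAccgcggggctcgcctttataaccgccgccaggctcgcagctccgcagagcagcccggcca
Each promoter holds CACGTG once, with its first base 139 bases before the start in Avp and 135 in Prok2. The promoters of Oxt, Avpr1a and Prokr2 hold it 0 times in this window. Of 32851 promoters of this length, 1978 (6.02%) hold CACGTG. The Prok2 promoter also holds TGAGTCA once, 67 bases before the start, as do 1466 promoters (4.46%). The full cyclic AMP response element TGACGTCA is in 0 of the 5 windows and in 1.55% of all promoters. Its first 5 letters TGACG, read on both strands, occur once in the Avpr1a window and in 17.8% of all promoters. A match of letters does not show binding.

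The first comparison asked how the members are distributed over the subregions, with 8 arrays of both treatments per region. Both neurohypophysial peptides were higher in dorsal SCN, Avp by 3.65-fold over central and 2.7-fold over ventral SCN and Oxt by 4.88-fold and 4.1-fold. Neither receptor passed the test in any of the 3 region pairs on the lead probe set, and Prok2 did not either. In dorsal against central SCN, 2 of the 5 members were called at an adjusted p under 0.05 (limma, Benjamini-Hochberg over 13494 tested genes), against 7.11% of all tested genes, or 11.8% when the replicate number within a treatment was a block. In dorsal against ventral SCN it was again 2 of 5, against 4.61%, and in central against ventral 0 of 5, against 5.2%. With the block, Avpr1a and Prok2 were called in central against ventral SCN, 2 of 5 against 7.19%.

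Avp was highest in the dorsal shell. Its dorsal arrays averaged 8.41 ± 0.75 in batch A and 9.22 ± 0.82 in batch B (log2, SD, n = 4). Central arrays averaged 6.22 ± 0.67 and 7.67 ± 0.65, and ventral arrays 6.78 ± 0.42 and 7.98 ± 0.26, in batches A and B. In batch A the lowest dorsal array, at 7.52, lay above the highest central (6.94) and ventral (7.13) arrays. In batch B the lowest dorsal array was dorsal pulsed replicate 4 at 8.09, below the highest central (8.39) and ventral (8.35) arrays, so the groups overlapped there. The difference was 1.87 ± 0.249 (SE) for dorsal over central (adjusted p = 2.97e-05) and 1.43 ± 0.249 for dorsal over ventral (adjusted p = 0.00074). Without dorsal pulsed replicate 4 these were 2.14 (adjusted p = 1.31e-08) and 1.7 (adjusted p = 2.61e-07), in fits that called 8.74% and 5.39% of tested genes. Central and ventral SCN, next to each other in the order of levels, differed by -0.44 with a 95% interval of -0.95 to 0.08 (adjusted p = 0.539). The fit of the pulsed arrays alone gave 1.64 over central (adjusted p = 0.113) and 1.44 over ventral SCN (adjusted p = 0.229), while sham arrays alone gave 2.1 (adjusted p = 0.000109) and 1.42 (adjusted p = 0.00208).

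**Figure D1:**
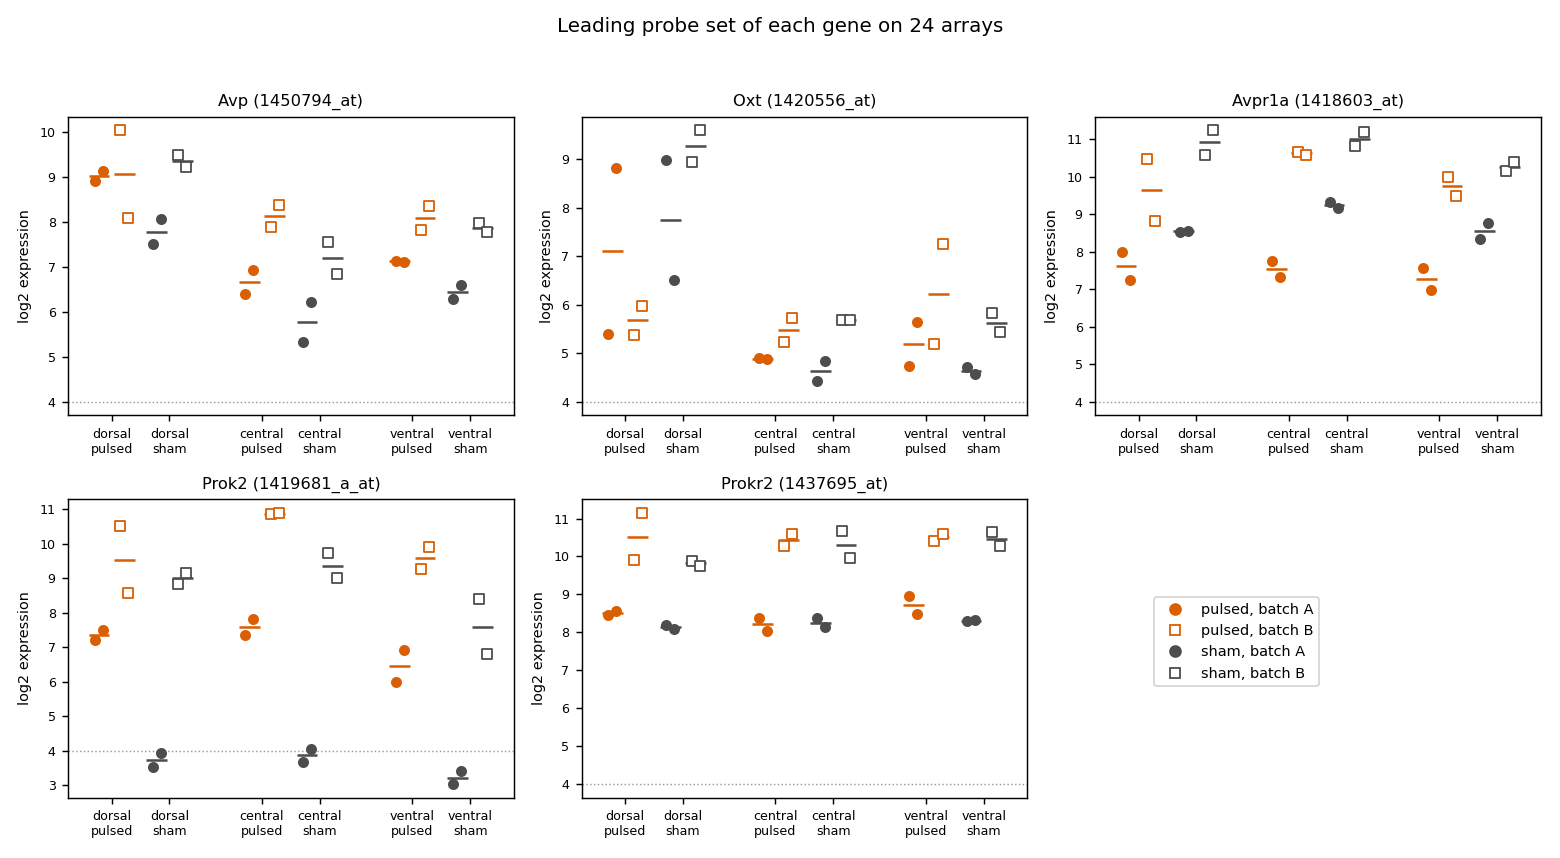
Log2 expression of the lead probe set of each member on 24 arrays, by region with pulsed left of sham. Filled circles are batch A arrays, open squares batch B arrays and short lines the mean of the 2 arrays of a batch. Avp is highest in dorsal SCN, Oxt is high on 5 of the 8 dorsal arrays, and sham batch A arrays of Prok2 lie between 3.03 and 4.06.

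Oxt was high on some dorsal arrays and low on others. Dorsal arrays averaged 7.43 ± 1.76 in batch A and 7.47 ± 2.11 in batch B (log2, SD, n = 4), the widest spreads of any member by region except Prok2 in batch A. Central arrays averaged 4.76 ± 0.22 and 5.58 ± 0.24, and ventral arrays 4.91 ± 0.5 and 5.92 ± 0.93. The 5 high dorsal arrays read 6.51 to 9.6, while dorsal pulsed replicates 1, 3 and 4 read 5.4, 5.38 and 5.97, close to the central arrays. Dorsal exceeded central SCN by 2.29 ± 0.457 (SE; adjusted p = 0.00232) and ventral SCN by 2.03 ± 0.457 (adjusted p = 0.00853), and central and ventral SCN differed by -0.25 with an interval of -1.2 to 0.7 (adjusted p = 0.969). Without dorsal pulsed replicate 4 the dorsal differences were 2.42 (adjusted p = 0.00163) and 2.16 (adjusted p = 0.00586). Pulsed arrays alone gave 1.22 over central (adjusted p = 0.584) and 0.69 over ventral SCN (adjusted p = 0.751), and sham arrays alone 3.35 (adjusted p = 0.000219) and 3.38 (adjusted p = 0.000234). In these fits the dorsal calls for Oxt came with the sham arrays. In the reference gene table Avp and Oxt are neighbours on chromosome 2 with 0 genes between them, on opposite strands. On dorsal pulsed replicate 1 Avp read 8.91, above every central and ventral array of batch A, beside 5.4 for Oxt. Over the 24 arrays, with batch means subtracted, Pearson's r of Avp and Oxt was 0.6, the highest of the member pairs. It was 0.599 without dorsal pulsed replicate 4.

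**Figure D2:**
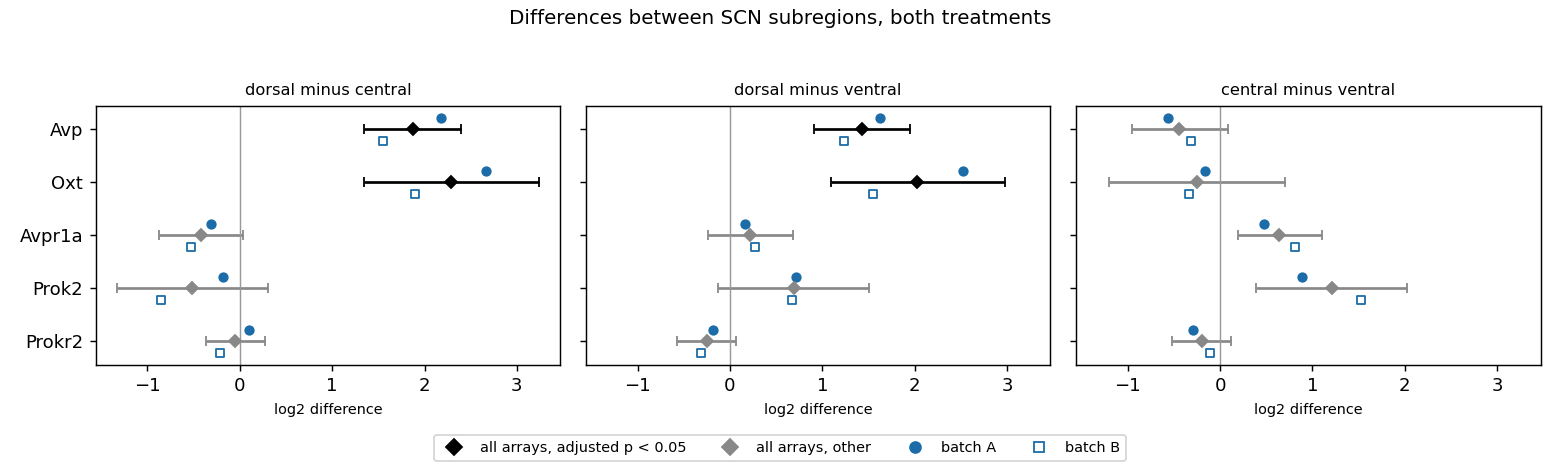
Log2 differences between regions for the 5 members, both treatments together. Diamonds are estimates from all arrays with 95% intervals, black where the adjusted p was under 0.05, and blue circles and squares are the differences within batches A and B. The 4 black diamonds belong to Avp and Oxt in the 2 dorsal comparisons.

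Markers of neighbouring hypothalamic neurons also differed over the dorsal arrays. Of 10 listed genes (Sim1, Otp, Crh, Trh, Hcrt, Pmch, Pomc, Agrp, Kiss1 and Gnrh1), 7 had a probe set annotated to that gene alone and 5 were tested. Sim1 and Hcrt exceeded a log2 value of 4 on 2 arrays each and Crh on 6. The summed linear level of the list was 160 to 193 on pulsed and 241 to 295 on sham dorsal arrays in batch A, and 260 to 403 on pulsed and 541 to 807 on sham dorsal arrays in batch B, without overlap in either batch. In central SCN the sums lay between 116 and 174. Ventral SCN had 148 to 177 on pulsed and 160 to 215 on sham arrays in batch A, and 375 to 448 on pulsed and 457 to 516 on sham arrays in batch B. In dorsal SCN the SCN neuron markers summed to 1919 to 2182 on pulsed and 1232 to 2102 on sham arrays in batch A. In batch B those sums were 8229 to 11427 and 4902 to 8386, so treatments overlapped in both batches. The median light difference of these markers was 0.46 in dorsal, -0.17 in central and -0.09 in ventral SCN, with 0 calls. Otp, a transcription factor of neuroendocrine neurons, was higher in dorsal than in central SCN by 1.87 ± 0.431 (SE; adjusted p = 0.0077). Trh, the thyrotropin-releasing hormone precursor, was higher by 1.92 ± 0.266 (adjusted p = 4.64e-05). Crh, Pmch and Pomc differed by -0.06, 0.39 and 0.45 there and did not pass. Against ventral SCN the dorsal differences of Otp and Trh were 0.29 (adjusted p = 0.788) and 0.06 (adjusted p = 0.943), over both treatments. Among sham arrays, where dorsal Oxt was high, the summed level was higher in dorsal than in ventral SCN without overlap in either batch. Such a sum rests mostly on its highest genes. By itself Otp was higher without overlap in both batches, but the nearest arrays of batch B read 8.31 and 8.27. Trh was so in batch A only, with 7.54 and 6.81 in dorsal and 6.81 and 7.01 in ventral SCN in batch B. Crh, Pmch and Pomc were so in neither batch. The part of tissue from neighbouring nuclei in the Oxt difference was not tested. In such dissected samples, fewer cells of a type and less RNA per cell cannot be told apart.

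**Figure D3:**
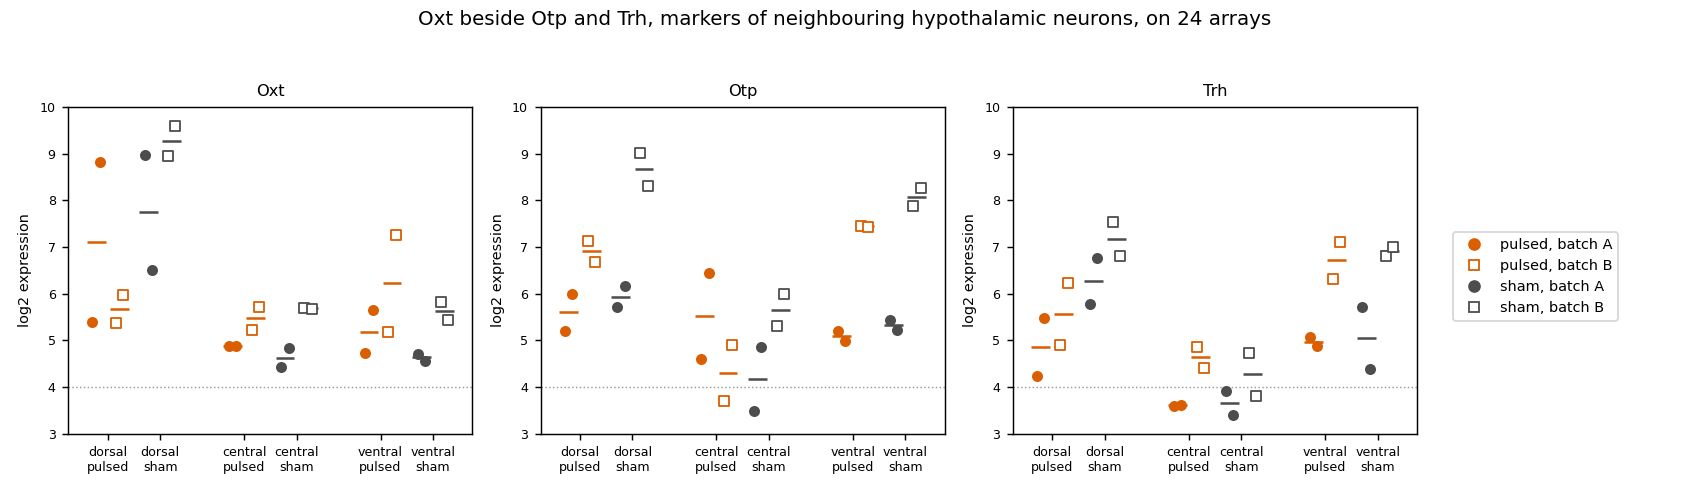
Log2 expression of Oxt beside Otp and Trh on 24 arrays, by region with pulsed left of sham. Otp and Trh are the 2 of 5 tested genes of neighbouring hypothalamic neurons that passed in dorsal against central SCN. Oxt is high on 5 of the 8 dorsal arrays and, at 7.26, on 1 ventral array, and Otp and Trh average lowest in central SCN.

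The V1a receptor gene had a flatter profile on its lead probe set. Avpr1a averaged 8.07 ± 0.62 in dorsal, 8.39 ± 1 in central and 7.91 ± 0.79 in ventral SCN in batch A (log2, SD, n = 4). In batch B the means were 10.28 ± 1.03, 10.81 ± 0.27 and 10.01 ± 0.38. The order was central, dorsal, ventral in both batches, and the dorsal range overlapped the central and the ventral range in both. Central and ventral ranges overlapped in batch A but not in batch B, at 10.58 to 11.19 and 9.49 to 10.4. Central exceeded ventral SCN by 0.64 ± 0.219 (SE), with an adjusted p of 0.112. With the replicate number within a treatment as a block, the adjusted p was 0.0182, and 7.19% of tested genes were called. It was 0.0318 without dorsal pulsed replicate 4, where 8.09% were called. Dorsal differed from central SCN by -0.42 (interval -0.88 to 0.03) and from ventral SCN by 0.22 (interval -0.24 to 0.68). The adjusted p of the first was 0.303, and 0.514 without dorsal pulsed replicate 4. The second probe set, 1418604_at, was lowest in ventral SCN within each treatment of batch B. Its pulsed and sham means there were 6.58 and 6.68 in dorsal, 6.4 and 7.22 in central and 5.65 and 6.1 in ventral SCN. In batch A they were 4.92 and 5.52, 5.24 and 5.48, and 5.16 and 5.24.

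On its lead probe set Prok2 had the same order as the lead of Avpr1a, but with large differences between treatments inside each region. Its regional means were 5.55 ± 2.1 in dorsal, 5.73 ± 2.17 in central and 4.84 ± 1.91 in ventral SCN in batch A, and 9.26 ± 0.87, 10.11 ± 0.92 and 8.59 ± 1.34 in batch B (log2, SD, n = 4). Central exceeded ventral SCN by 1.21 ± 0.394 (SE), with an adjusted p of 0.0898. The adjusted p was 0.00532 with the replicate block, 0.0181 without dorsal pulsed replicate 4 and 0.0489 without central sham replicate 1. The central minus ventral difference was positive in both batches, 0.89 in batch A and 1.53 in batch B. Dorsal differed from central SCN by -0.52 (interval -1.33 to 0.3) and from ventral SCN by 0.69 (interval -0.13 to 1.51). With dorsal pulsed replicate 4 left out, these were -0.19 (adjusted p = 0.82) and 1.02 (adjusted p = 0.0844). The other probe sets, over a log2 value of 4 on 9 and 12 arrays, did not keep the order of the lead. Probe set 1451952_at gave 0.21 for dorsal over central SCN, with dorsal pulsed replicate 4 its highest array. Probe set 1426176_a_at gave -0.2 for dorsal over ventral and -0.05 for central over ventral SCN.

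Prokr2 had 0 calls between regions on its lead probe set, and its largest regional difference was -0.25. It averaged 8.33 ± 0.22 in dorsal, 8.23 ± 0.17 in central and 8.52 ± 0.31 in ventral SCN in batch A, and 10.17 ± 0.66, 10.38 ± 0.33 and 10.48 ± 0.17 in batch B (log2, SD, n = 4). The dorsal minus ventral difference was -0.25 with an interval of -0.57 to 0.07 (adjusted p = 0.479), and the other region pairs gave -0.05 and -0.2 with adjusted p of 0.893 and 0.774. The second Prokr2 probe set, 1440564_at, gave -0.44 ± 0.114 (SE) for dorsal over ventral SCN with an adjusted p of 0.0235, the same direction as the lead.

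The second comparison asked what the light pulse changed 3.5 h later. Prok2 was higher after the pulse in central and ventral SCN, the member calls of this comparison, by log2 differences of 3.73 and 3.24 in batch A and 1.51 and 1.99 in batch B. Its differences over both batches, given below on the log2 scale, rest partly on low values. On its lead probe set, 5 of the 6 sham arrays of batch A lay under the filter level of 4. On its lead probe set Avpr1a was lower on every pulsed array than on every sham array of its batch in each of the 3 regions, but its adjusted p did not pass, and its second probe set overlapped between treatments. Avp, Oxt and Prokr2 had 0 calls in the 3 regions. The number of members called was 0 of 5 in dorsal, 1 of 5 in central and 1 of 5 in ventral SCN, against 0.178%, 0.385% and 0.719% of all tested genes.

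For Prok2 the dorsal arrays read 7.22, 7.49, 10.51 and 8.56 after the pulse and 3.54, 3.93, 8.83 and 9.15 after sham treatment (log2, replicates 1 to 4). In central SCN the values were 7.36, 7.82, 10.85 and 10.89 after the pulse and 3.67, 4.06, 9.73 and 8.99 after sham. In ventral SCN they were 6, 6.92, 9.27 and 9.89 after the pulse and 3.03, 3.41, 8.39 and 6.8 after sham. Pulsed and sham arrays did not overlap in either batch in central and ventral SCN, where 2.99% and 5.96% of tested genes were higher without overlap. In dorsal SCN they did not overlap in batch A, but dorsal pulsed replicate 4 fell below both sham arrays of batch B.

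The Prok2 difference was 2.62 ± 0.557 (SE; interval 1.46 to 3.78) in central SCN with an adjusted p of 0.0345, and 2.61 ± 0.557 (interval 1.46 to 3.77) in ventral SCN with an adjusted p of 0.0235. In dorsal SCN it was 2.08 ± 0.557 (interval 0.92 to 3.24), with an adjusted p of 0.195. Without dorsal pulsed replicate 4 the dorsal difference was 2.74 ± 0.486 with an adjusted p of 0.0154, in a fit that called 0.304% of genes. Averaged over the regions it was 2.44 ± 0.388, with an adjusted p of 0.024, where 0.408% of genes were called. The differences within batch A were 3.62, 3.73 and 3.24 in dorsal, central and ventral SCN, and within batch B 0.54, 1.51 and 1.99. The sham values of batch A, 3.03 to 4.06, lay around the medians of all probe sets on those arrays, while the sham values of batch B were 6.8 to 9.73. With batch B alone the adjusted p was 1 in central and in ventral SCN. The call was lost in central SCN without any 1 of its arrays except sham replicate 3 (adjusted p = 0.0598 to 0.161), and in ventral SCN without any 1 of its arrays except pulsed and sham replicate 3 (adjusted p = 0.0542 to 0.14).

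**Figure D4:**
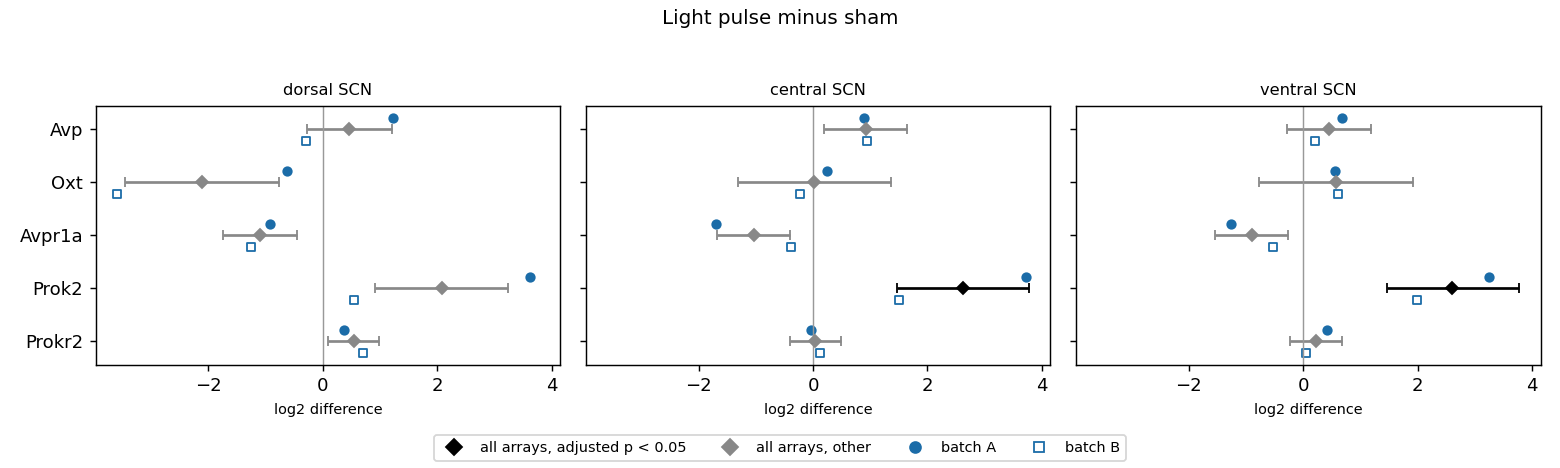
Log2 differences of pulsed minus sham arrays in dorsal, central and ventral SCN for the 5 members. Diamonds are estimates from all arrays with 95% intervals, black where the adjusted p was under 0.05, and circles and squares are the differences within batches A and B. Prok2 lies between 2.08 and 2.62 in each region, and Avpr1a between -1.1 and -0.9.

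The 3 Prok2 probe sets disagreed. The lead, 1419681_a_at, exceeded a log2 value of 4 on 19 of 24 arrays. The second, 1451952_at, did so on 9 arrays, and read 3.22, 4.19, 5.56 and 5.33 on pulsed and 2.39, 2.77, 3.96 and 4.46 on sham arrays of central SCN. In dorsal SCN it read 3.23, 3.92, 5.44 and 6.98 on pulsed and 2.7, 2.69, 3.61 and 4.98 on sham arrays. Pulsed arrays were higher without overlap within each batch in both regions, as were 3.31% of tested genes in dorsal and 2.99% in central SCN. Dorsal pulsed replicate 4, low on the lead probe set, was the highest on the second probe set. The differences of this second probe set were 1.4 in dorsal (adjusted p = 0.147), 1.18 in central (adjusted p = 0.232) and 0.32 in ventral SCN (adjusted p = 1). The third, 1426176_a_at, read 2.85 to 3.59 in batch A and 4.03 to 5.15 in batch B, close to the array medians, and gave -0.05 in central (adjusted p = 0.993) and 0.18 in ventral SCN. The probe sequences were not used here, so the transcripts each probe set reads are not compared.

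**Figure D5:**
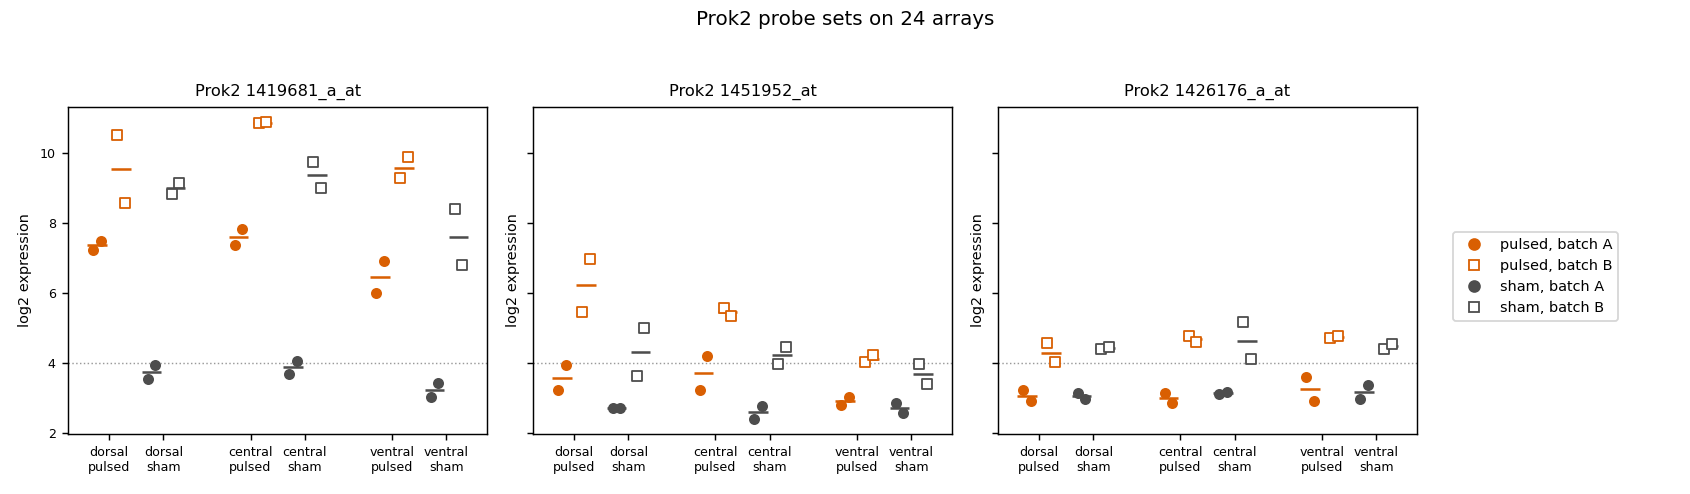
Log2 expression of the 3 Prok2 probe sets on 24 arrays, by region with pulsed left of sham. Short lines are means of the 2 arrays of a batch, and the dotted line is the filter level of 4. The first panel separates pulsed from sham most, the second less, and the third not.

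Avpr1a moved the other way from Prok2. Dorsal arrays read 7.98, 7.24, 10.47 and 8.83 after the pulse and 8.53, 8.55, 10.59 and 11.24 after sham (log2, replicates 1 to 4). Central arrays read 7.74, 7.33, 10.66 and 10.58 after the pulse and 9.32, 9.16, 10.81 and 11.19 after sham. Ventral arrays read 7.57, 6.98, 9.99 and 9.49 after the pulse and 8.33, 8.76, 10.14 and 10.4 after sham. On this lead probe set, both pulsed arrays lay below both sham arrays in each region and batch, a pattern that 2.63% of tested genes had in dorsal, 6.36% in central and 7.91% in ventral SCN. In batch B some gaps were small, 0.12 in dorsal, 0.14 in central and 0.15 in ventral SCN between the nearest arrays. The differences were -1.1 ± 0.31 in dorsal (adjusted p = 0.222), -1.04 ± 0.31 in central (adjusted p = 0.23) and -0.9 ± 0.31 in ventral SCN (SE; adjusted p = 0.379), with intervals that lay below 0 before adjustment. Averaged over the regions Avpr1a differed by -1.01 ± 0.216 (adjusted p = 0.109). Over the 24 fits that left out 1 array it lay between -1.22 and -0.84 and passed in 3. The adjusted p ran from 0.0333, at -1.22 without pulsed replicate 3, to 0.414 without sham replicate 2. Without dorsal pulsed replicate 4 the dorsal difference was -0.77 (adjusted p = 0.435) and the central one had an adjusted p of 0.0518. The second probe set, 1418604_at, exceeded a log2 value of 4 on 24 arrays. In dorsal SCN it read 4.65, 5.2, 6.37 and 6.78 after the pulse and 5.29, 5.75, 6.12 and 7.23 after sham. Its central values were 5.66, 4.82, 6.27 and 6.52 after the pulse and 5.35, 5.6, 7.04 and 7.4 after sham, and its ventral values 4.63, 5.68, 5.42 and 5.88 after the pulse and 5.24, 5.25, 5.73 and 6.48 after sham. Pulsed arrays were lower without overlap in batch A of dorsal and batch B of central SCN, and overlapped sham arrays in the other 4 combinations of region and batch. Its differences had the sign of the lead and were smaller, -0.35 in dorsal (adjusted p = 0.629), -0.53 in central (adjusted p = 0.726) and -0.27 in ventral SCN (adjusted p = 1).

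Avp, the ligand of that receptor, read 8.91, 9.14, 10.05 and 8.09 on pulsed and 7.52, 8.06, 9.5 and 9.24 on sham arrays of dorsal SCN. Pulsed arrays were above sham arrays in batch A and overlapped them in batch B through dorsal pulsed replicate 4. The dorsal difference was 0.46 ± 0.352 (SE; adjusted p = 0.589), and 1 ± 0.234 without that array (adjusted p = 0.0719). Central arrays read 6.39, 6.94, 7.9 and 8.39 on pulsed and 5.33, 6.23, 7.55 and 6.84 on sham arrays. Pulsed arrays were higher there without overlap in either batch, as for 2.99% of tested genes. That difference was 0.92 ± 0.352 with an adjusted p of 0.446, and 0.0359 without dorsal pulsed replicate 4, when 1.22% of genes were called. In ventral SCN pulsed arrays read 7.13, 7.12, 7.83 and 8.35 and sham arrays 6.28, 6.61, 7.98 and 7.78, which overlapped in batch B and differed by 0.45 with an interval of -0.28 to 1.18. Averaged over the regions Avp differed by 0.61 ± 0.198 (adjusted p = 0.336).

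Oxt read 5.4, 8.83, 5.38 and 5.97 on pulsed and 8.98, 6.51, 8.95 and 9.6 on sham arrays of dorsal SCN. Both pulsed arrays of batch B lay at least 2.97 below both sham arrays, whereas in batch A pulsed replicate 2 lay above sham replicate 2 and the groups overlapped. The difference was -2.11 ± 0.647 (SE; interval -3.46 to -0.77) with an adjusted p of 0.312. Without dorsal pulsed replicate 2 it was -3.08 (adjusted p = 0.00336), and without dorsal pulsed replicate 4 it was -1.86 (adjusted p = 0.455). In the same arrays Trh differed by -1.51 (adjusted p = 0.142) and Otp by -1.05 (adjusted p = 0.524). The other tested markers of neighbouring neurons, Crh, Pmch and Pomc, differed by 0.2, -0.2 and 0, and the list median was -0.2. The part of neighbouring neurons in the Oxt values was not tested. In central SCN Oxt read 4.42 to 5.72 over both treatments and differed by 0.02, and in ventral SCN by 0.58 with an interval of -0.77 to 1.92.

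Prokr2, the receptor of prokineticin 2, read 8.47, 8.57, 9.9 and 11.15 on pulsed and 8.2, 8.09, 9.87 and 9.76 on sham arrays of dorsal SCN. Pulsed arrays were higher without overlap in both batches there, as for 3.31% of tested genes, although the gap in batch B was 0.02, and dorsal pulsed replicate 4 was the highest. The difference was 0.54 ± 0.218 (SE; adjusted p = 0.451), and 0.31 without that array (adjusted p = 0.81). In central SCN it was 0.04 (interval -0.41 to 0.49) and in ventral SCN 0.23 (interval -0.23 to 0.68), and the treatments overlapped in batch B of both regions. The second probe set, 1440564_at, was not called after light in any region. It overlapped in dorsal batch B, at 9.76 and 10.24 on pulsed and 9.4 and 9.87 on sham arrays. In ventral SCN its pulsed arrays were higher without overlap in both batches, as for 5.96% of tested genes. They read 8.16, 7.68, 10.24 and 10.25, against 7.19, 7.57, 10.1 and 10.08 on sham arrays.

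Whether the light effect differed between regions was tested directly, with a moderated F statistic. At an adjusted p under 0.05, 0 of the 5 members were called, against 0.00741% of tested genes, which is 1 gene. Oxt had the highest F of the members, 4.82 with an unadjusted p of 0.0186, and an adjusted p of 1. Its light effect in dorsal SCN was lower than that in ventral SCN by a difference of -2.69, with an interval of -4.59 to -0.79 before adjustment (adjusted p = 0.937). For Prok2 the dorsal effect differed from the ventral one by -0.53 (interval -2.17 to 1.1), from the central one by -0.54 (interval -2.17 to 1.1), and the central from the ventral one by 0.01 (interval -1.63 to 1.64). The first 2 of these changed sign without dorsal pulsed replicate 4, to 0.12 in both cases (adjusted p = 1 and 0.999).

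Other genes of these pathways were read from lists of ligands and receptors, Gq signalling, peptide processing and receptor regulators. Of the 5 other ligands and receptors, Oxtr and Prokr1 were tested and 0 passed in any comparison; Avpr1b and Avpr2 were below the filter on low values. Oxtr, the oxytocin receptor, differed by -0.97 between pulsed and sham dorsal SCN (adjusted p = 0.432) and by -0.74 between dorsal and ventral SCN (adjusted p = 0.127). The peptide-processing list gave the pathway calls after light. Pcsk1, a convertase that cleaves peptide precursors, was higher on pulsed arrays by 1.9 ± 0.279 (SE) in ventral SCN (adjusted p = 0.000775) and by 1.32 in central SCN (adjusted p = 0.0338), with 0.84 in dorsal SCN (adjusted p = 0.352). It was 1 of the 5 tested genes of the 7 on that list, whose medians were -0.03, 0.13 and -0.03 in dorsal, central and ventral SCN, beside -0.03, -0.08 and -0.03 over all tested genes. Of 11 tested Gq genes and 7 tested receptor regulators, 0 passed after light in any region. The medians of the Gq genes were -0.09, -0.07 and 0 in dorsal, central and ventral SCN.

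Between regions 4.61% to 7.11% of all tested genes were called, and members of the same lists were among them. Rgs4, which speeds the shut-off of Gq and Gi proteins, was higher in dorsal than in central SCN by 1.68 (adjusted p = 1.79e-07) and than in ventral SCN by 0.97 (adjusted p = 0.000265). Mrap2, a membrane partner of several peptide receptors that in cell studies reduces prokineticin receptor signalling, was higher in dorsal than in central SCN by 1.53 (adjusted p = 0.000184). It was lower in central than in ventral SCN by a difference of -1.15 (adjusted p = 0.00355). Arrb1, a receptor-desensitising arrestin, was higher in dorsal than in central SCN by 0.52 (adjusted p = 0.0178), so 3 of 7 tested regulators passed there, beside 7.11% of all tested genes, with a list median of 0.45 beside 0.05 over all tested genes. Prkcb, a protein kinase C, was the 1 of 11 tested Gq genes that passed in each dorsal comparison, at 0.62 over central (adjusted p = 0.000578) and 0.54 over ventral SCN (adjusted p = 0.00289), a count near the 7.11% and 4.61% of all tested genes. The median of the Gq list was 0.01 in both. In central against ventral SCN, Plcb3, a phospholipase C, was lower by a difference of -0.81 (adjusted p = 0.0061) and Prkce, another protein kinase C, higher by 0.39 (adjusted p = 0.0258). Pcsk1 was lower in dorsal than in ventral SCN by a difference of -1.16 (adjusted p = 0.000595). Markers of other cell types moved with these comparisons too. Of 5 oligodendrocyte genes, 4 were lower in dorsal than in ventral SCN, 4 were higher in dorsal than in central and 5 were lower in central than in ventral SCN. Their summed linear level was 2033 to 2912 in dorsal, 572 to 1531 in central and 4564 to 6764 in ventral SCN in batch A, and 4973 to 8856, 2074 to 2801 and 8543 to 10178 in batch B. Of 5 astrocyte genes, 3 were lower in dorsal and 4 lower in central than in ventral SCN. Their sums were 3153 to 4082 in dorsal, 2638 to 3572 in central and 4730 to 5172 in ventral SCN in batch A, and 10438 to 12478, 9409 to 10904 and 12024 to 13733 in batch B. Ccdc153, a gene of ependymal cells over a log2 value of 4 on 16 arrays, was higher in dorsal than in central SCN by 1.97 (adjusted p = 0.000156). It was higher than in ventral SCN by 1.59 (adjusted p = 0.0018). The other tested genes of that list, Col23a1 and Vim, gave 0.13 and 0.18 over central and 0.01 and -0.23 over ventral SCN, and did not pass. Foxj1 and Rax of the list exceeded a log2 value of 4 on 0 arrays. The part of these cells in the regional values was not tested.

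The genes whose levels followed each member most closely over the 24 arrays, with batch means subtracted, were taken by Pearson's r. The arrays share regions, treatments and amplification, so these are descriptions. Prok2 was followed by C1ql3 (r = 0.931), Slc2a13 (0.891), Rora (0.886), Fosl2 (0.875) and Creb3l1 (0.856); Rora is a nuclear receptor of the clock and Fosl2 an AP-1 protein. Avp was followed by Slc7a1 (0.857), Ccdc134 (0.841), Epb41l5, Asb4 (0.824) and Calcr (0.816), the last encoding the calcitonin receptor. For Avpr1a they were Akap7 (0.879), Zfp618 (0.876), Cmbl (0.864), Sez6l (0.857) and Nagk (0.851). Oxt and Prokr2 had lower values, with Sucla2 (0.74), Cplx2 (0.731), Pabpc1l (0.719), Luzp1 (0.713) and Slc25a25 (0.71) for Oxt, and Pabpc1 (0.798), Pde7b (0.777), Tcf7l1 (0.753), Gpatch1 (0.741) and F8 (0.739) for Prokr2. Without dorsal pulsed replicate 4, C1ql3 remained first for Prok2 (0.933), whereas F8 dropped to 0.614 for Prokr2.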

How the data were processed

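The authors deposited 1 log2 expression value per probe set and array. GCRMA 2.32.0, MAS5 and R 3.0.2 appear in the submitters' processing notes, with no role stated, and no source used here gives the normalization of the batches. Of 45101 probe sets, 34945 had 1 gene symbol in the platform annotation. A log2 value over 4 on 4 or more arrays was required of the lead probe set, leaving 13494 of 18193 genes, among them 5 of 5 members. Limma 3.58.1 in R 4.3.3 fitted 6 group means and a batch term to 24 arrays, two-sided, with Benjamini-Hochberg adjustment. The light effect averaged over regions used 8 composites, each a mean of 3 regions. The fits were tested on simulated data. The number of arrays limits the precision.

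Replicate numbers were checked by correlating deviations from the group means within batches. For 2 regions of one treatment, 12 of 12 pairs exceeded 0.1 (0.185 to 0.623), so these numbers were taken to pair samples, and the blocked value is given where it changed a call. Pulsed and sham arrays of one region, 5 of 6 pairs over 0.1, were not taken as paired. Same-numbered arrays that differed in both region and treatment gave 0.101 to 0.422, so this check cannot show which samples share animals. The pairing is an assumption of the blocked fits.

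The members, gene lists and tests were chosen with earlier results of these data known. Named genes are the members, their 5 most correlated genes, and list genes past the threshold or with the smallest p. Prok1, Itpr1, Pcsk2, Lnpep and Grk2 were not analysed here.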

Additional observations from a re-analysis of the deposited data

Results flagged for a closer look

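In 4 of the 30 groups of 4 arrays examined, 1 array stood apart from the other 3 after batch means were subtracted, with a gap to the nearest array above Dixon's 95% critical share of the group's range. Chance flags about 5% of such groups. Dorsal pulsed replicate 4 was the lowest for Avp at 8.09, against 8.91 to 10.05 on the other dorsal pulsed arrays, and it is the array whose Gapdh 3′ and 5′ probe sets differ most. Dorsal pulsed replicate 2 was the highest for Oxt at 8.83, against 5.38 to 5.97 on the other dorsal pulsed arrays. Ventral pulsed replicate 3 was the lowest for Avp relative to its batch at 7.83. Ventral sham replicate 3 was the highest for Prokr2 at 10.65.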

How the results depend on the processing

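The Avp and Oxt regional differences passed the test in 24 of 24 fits that left out 1 array, at 1.31 to 1.7 for Avp and 1.55 to 2.33 for Oxt in dorsal over ventral SCN and 1.75 to 2.14 and 1.8 to 2.58 over central SCN. Prok2 after light ranged over 2.28 to 3.02 in central SCN, passing in 17 of 24 such fits (adjusted p = 0.161 without central sham replicate 2), 2.3 to 2.97 in ventral SCN, passing in 18 (0.14 without ventral pulsed replicate 2), and 2.11 to 2.79 averaged, passing in 12 (0.0518 to 0.138 without pulsed replicate 1 or sham replicate 1, 2 or 4, whose composite is then left out). Every call lost in central or ventral SCN was lost on leaving out an array of that region. Leaving out an array of another region left the difference itself unchanged. Without the batch term the differences stayed at 2.62, 2.61 and 2.44 for Prok2, 1.43 and 1.87 for Avp and 2.03 and 2.29 for Oxt, and 0 of 7 passed. In batch B alone they were 1.51, 1.99 and 1.35 for Prok2, 1.24 and 1.55 for Avp and 1.55 and 1.9 for Oxt, and 0 of 7 passed, with fewer arrays. In batch A alone Oxt gave 2.52 and 2.67 and did not pass. Pulsed arrays alone gave 1.44 and 1.64 for Avp and 0.69 and 1.22 for Oxt. Averaged Prok2 missed the threshold after quantile normalization (2.66) and with no filter on low values (2.44), and central Prok2 when its region was fitted alone (2.62). Prok2 probe set 1451952_at gave 1.18, 0.32 and 0.96, and 1426176_a_at gave -0.05 (reversed), 0.18 and 0.03, in central, ventral and averaged comparisons. With the replicate number as a block, adjusted p of Prok2 was 0.0254, 0.0189 and 0.0107, and the block changed no light call. Array weights added calls, among them dorsal Oxt (-3.01), dorsal Prok2 (2.31) and averaged Avpr1a (-0.73). The count of genes called over all alternatives ranged from 0 to 353 in dorsal (24 in the reported fit), 0 to 204 in central (52) and 0 to 576 in ventral SCN (97) after light, 0 to 476 averaged (55), and 4 to 1374 for dorsal over ventral (622), 7 to 1762 for dorsal over central (959) and 9 to 1390 for central over ventral SCN (702). The cause of these changes was not tested.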
